A study of Homo sapiens with 9 samples.

Results

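Crosslinking sites inside coding sequence (CDS) were described for 11 RNA-binding proteins (RBPs) profiled by antibody-barcode eCLIP, named ABC in the labels. Of the 2478204 merged peaks in the deposited lists of all 54 libraries, 627624 (25.3%) had their centre in the CDS of the canonical transcript of a gene, on the same strand and more than 50 nt along the transcript from both the start and the stop codon. Another 52924 peaks were centred in a CDS but lay within 50 nt of the start or stop codon and were left out. The coding peaks lay in 11845 genes, and 76.7% of them fell whole within the coding part of a single exon. By experiment, 219138 coding peaks came from the K562 10plex libraries, 364945 from the HEK293 10plex libraries, 41885 from the RBFOX2 singleplex libraries and 1656 from the SLBP singleplex libraries.

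In ABC, cells are crosslinked with ultraviolet light, each antibody carries its own DNA barcode, and the barcode is ligated to the RNA held by that antibody, so that the reads of several RBPs can be told apart after 1 immunoprecipitation. In the 10plex experiments 10 antibodies were pooled in each tube, against DDX3, EIF3G, FAM120A, IGF2BP2, LIN28B, PRPF8, PUM2, RBFOX2, SF3B4 and ZC3H11A. K562, an erythroleukaemia cell line, had 3 such tubes, and HEK293, an embryonic kidney cell line, had 2. In the singleplex experiments a single antibody was used, against RBFOX2 in 2 tubes of HEK293 cells and against SLBP in 2 tubes of K562 cells. The labels name no genetic change, drug or time course. Reads in peaks ranged from 13351 (PUM2, K562 replicate 1) to 2790199 (RBFOX2, HEK293 replicate 2) per 10plex library, were 4415108 and 2185327 for RBFOX2 singleplex, and 84098 and 19484 for SLBP singleplex. Nothing in the labels says that the tubes of a group came from separate cultures, so the spread between tubes may be technical. The p-values that compare an RBP with the others were obtained by permuting RBP labels within tubes. They measure a difference against the spread between RBPs, not against that between tubes. Only the p-values that compare cell lines, or singleplex with 10plex libraries, rest on the spread between tubes.

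The labels of the HEK293 10plex tubes are not uniform. Their titles and source name the line HEK293T, the growth protocol says HEK293, as is written here, the study's methods name HEK293XT, their cell line field says K562, and both titles carry the number 1 with the original number beside it. The coding peaks were therefore checked against marker genes of both lines. Coding peaks were found in 10 to 11 of 11 K562 markers in the K562 tubes and in 0 to 1 of 11 in the HEK293 tubes, whereas 7 of 8 HEK293 markers had coding peaks in the HEK293 tubes and 0 to 1 of 8 in the K562 tubes. PAX2 was the HEK293 marker with no coding peak.

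A ribosome travels along the CDS from start to stop codon and displaces proteins from it, so most regulatory RBPs are known for sites in introns or untranslated regions. Several kinds of contact with coding exons are nevertheless known. LIN28 proteins bind mRNAs widely, exon junction and spliceosomal proteins are crosslinked next to the splice sites that bound an exon, and helicases and initiation factors meet the beginning of the CDS as the first ribosomes assemble. The RBPs profiled here include proteins of the cytoplasm (DDX3, EIF3G, FAM120A, IGF2BP2, LIN28B, PUM2), of the spliceosome (PRPF8, SF3B4), of splicing regulation (RBFOX2) and of mRNA export (ZC3H11A).

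Peaks were called enriched when P was below 0.001 and the fold was above 8 over a background. In 10plex libraries the background was the complement control (CC), the reads of the other 9 barcodes of the same tube, and in singleplex libraries it was an external background, which the methods give as RNA-seq. Over all libraries 602858 coding peaks could be tested and 34277 in 7945 genes were enriched. A peak centre also lay within the span of another gene on the same strand for 2061 of these (6.01%), and reads of such peaks cannot be assigned to 1 gene with certainty. None of the sites printed next lay in another gene.

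The sites below are examples of coding sites of the RBPs other than DDX3, and not every site of a pair is printed. They are drawn from the 2 coding sites of each RBP with the highest mean log2 fold among those enriched in every replicate. Each line gives 61 nt of the coding strand of the genome (GRCh38), 5′ to 3′, around the middle of the site. Capitals mark the bases covered by the peak of every replicate.
LIN28B, ITGAV, chr2:186630797-186630857, + strand: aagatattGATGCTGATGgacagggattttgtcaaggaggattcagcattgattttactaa
LIN28B, NOL8, chr9:92314761-92314821, - strand: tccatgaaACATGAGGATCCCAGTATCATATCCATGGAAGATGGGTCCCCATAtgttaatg
SF3B4, PAEP, chr9:135564245-135564305, + strand: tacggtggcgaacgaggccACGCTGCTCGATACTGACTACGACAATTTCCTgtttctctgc
PRPF8, ARID2, chr12:45821450-45821510, + strand: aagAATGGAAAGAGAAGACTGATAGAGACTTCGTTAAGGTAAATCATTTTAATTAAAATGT
IGF2BP2, SEC24D, chr4:118744969-118745029, - strand: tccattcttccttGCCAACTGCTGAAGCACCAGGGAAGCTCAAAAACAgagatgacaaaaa
FAM120A, FAM98B, chr15:38484273-38484333, + strand: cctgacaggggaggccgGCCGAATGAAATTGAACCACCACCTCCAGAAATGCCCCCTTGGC
RBFOX2, OR2AK2, chr1:247965786-247965846, + strand: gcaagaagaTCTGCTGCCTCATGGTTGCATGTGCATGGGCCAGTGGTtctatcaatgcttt
PUM2, PITPNB, chr22:27858424-27858484, - strand: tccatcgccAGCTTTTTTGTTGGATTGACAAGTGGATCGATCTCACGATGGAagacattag
EIF3G, TPP2, chr13:102614135-102614195, + strand: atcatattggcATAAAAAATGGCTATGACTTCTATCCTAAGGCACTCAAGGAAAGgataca
ZC3H11A, PRAME, chr22:22550836-22550896, - strand: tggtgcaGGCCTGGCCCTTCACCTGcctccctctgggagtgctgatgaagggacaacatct
RBFOX2 singleplex, DOCK3, chr3:51277610-51277670, + strand: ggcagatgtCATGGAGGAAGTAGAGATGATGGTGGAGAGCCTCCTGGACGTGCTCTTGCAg
SLBP singleplex, H2BC4, chr6:26123565-26123625, - strand: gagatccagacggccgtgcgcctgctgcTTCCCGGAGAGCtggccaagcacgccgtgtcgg

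The ITGAV site lay in exon 5 of 30 of the integrin alpha V gene, and the LIN28B peaks there held 18, 62 and 34 reads in K562 replicates 1 to 3 against 1, 4 and 8 reads of the other 9 RBPs. Its log2 fold over the CC was 8.20, 8.07 and 6.24. The PRPF8 site in ARID2, which encodes a subunit of a chromatin remodelling complex, was centred 5, 8 and 6 nt from the end of the 68-nt exon 6, and the capitals run past the exon into the intron that follows. The SF3B4 site in PAEP, which encodes glycodelin, was centred 29, 28 and 38 nt from the start of exon 4, with 6, 5 and 3 reads. The other site of each pair, not printed, lay farther from these exon ends. That of PRPF8 in NDUFAF7 was centred 143, 142 and 147 nt from the exon end. That of SF3B4 in MAN2A2 was centred 186, 179 and 185 nt from the exon start. The printed SF3B4 and PRPF8 sites rested on few reads, and sites of these RBPs enriched in every K562 replicate numbered 2 and 15 only.

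The RBFOX2 site in OR2AK2, an intronless coding region of an olfactory receptor gene, holds the RBFOX2 motif GCATG and was covered by 6, 12 and 5 reads. The other RBFOX2 site of the K562 pair, in ZNF33B and not printed, holds no GCATG in its 61 nt. The FAM120A site in FAM98B lay in the last of 8 exons and was among the deepest, with 113, 282 and 61 reads. The ZC3H11A site in PRAME, which encodes a tumour antigen, held 69, 87 and 62 reads with 27, 75 and 53 reads in the CC. Counted from the start codon, this PRAME site was centred at 15.06%, 16.04% and 15.98% of the CDS. The other ZC3H11A site of the pair, in MDN1 and not printed, was centred at 92.34%, 92.43% and 92.35%. The DDX3 sites with the highest fold lay in OTOGL (3, 10 and 14 reads) and RAD21 (14, 14 and 16 reads), a cohesin subunit gene. From the start codon, the OTOGL site was centred at 86.0%, 86.0% and 86.1% of the CDS, and its 61 nt held 41.0% GC. The RAD21 site was centred at 20.4%, 21.1% and 20.3% of the CDS. The DOCK3 site of the RBFOX2 singleplex libraries held 189 and 93 reads, and the SLBP site in H2BC4, a histone H2B gene, 74 and 20 reads. The SLBP site with the highest fold was not in a histone gene. It lay in FEZF2, is not printed, and held 129 and 22 reads. Its mean log2 fold over the external background was 10.0, against 9.55 for H2BC4.

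The share of peaks that were enriched differed between coding peaks and all peaks of the same RBP. In K562, 33.7% of the tested coding peaks of LIN28B were enriched, against 30.9% of all its tested peaks. For PUM2 the values were 25.0% of coding and 26.4% of all peaks, and for ZC3H11A 12.4% and 14.9%. IGF2BP2 had 7.34% of coding and 8.55% of all peaks enriched, EIF3G 14.6% and 25.9%, and DDX3 9.81% and 16.1%. PRPF8 had 8.27% of coding and 19.2% of all peaks enriched, SF3B4 4.55% and 25%, RBFOX2 0.677% and 9.65%, and FAM120A 0.655% and 19.1%.

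In HEK293, LIN28B again had like shares, with 20.3% of coding and 20.1% of all tested peaks enriched. For PRPF8 the shares were 6.59% and 12.8%, for PUM2 6.89% and 13.6%, for DDX3 4.31% and 9.25%, for EIF3G 4.08% and 12.6%, and for ZC3H11A 3.74% and 6.27%. IGF2BP2 had 1.48% of coding and 2.44% of all peaks enriched. SF3B4 had 2.03% and 16%, FAM120A 0.408% and 18.7%, and RBFOX2 0.160% and 5.49%. In the singleplex libraries 1.10% of coding and 10% of all RBFOX2 peaks were enriched over the external background, and 49.7% of coding and 55.3% of all SLBP peaks. With the replicates pooled, LIN28B was the only RBP whose coding peaks were enriched at or above the rate of all its peaks. By single tubes, LIN28B in HEK293 replicate 2 was just below (15.0% of coding and 15.5% of all peaks), and PUM2 in K562 replicate 1 was above (33.6% and 20.5%). These shares are descriptions and were not tested.

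LIN28B, which binds let-7 precursors and many mRNAs, had the largest coding share. With the replicates pooled it had the most enriched coding peaks in K562, whereas in HEK293 PRPF8 had more (5746 against 4855). LIN28B had 2162, 3500 and 2370 enriched coding peaks in K562 replicates 1 to 3, which were 60.7%, 62.9% and 55.4% of its enriched peaks. In HEK293 it had 3076 and 1779, or 59.9% and 56.5%. In coding share every LIN28B library was above all libraries of the other RBPs. The mean share was 59.7% ± 3.90 (SD, n = 3) in K562 against 16.3% for the other 9 RBPs, a difference of 43.4 percentage points (exact permutation of the RBP labels within replicates, two-sided, p = 0.001, adjusted over the 10 RBPs 0.01). In HEK293 the difference was 42.5 points (58.2% ± 2.42, n = 2, against 15.7%, exact p = 0.01, adjusted 0.1). These are the smallest p-values that 3 and 2 replicates allow, and a single RBP at the smallest p of HEK293 is adjusted to 0.1 over the 10 RBPs. Since the CC of each RBP is made of the other 9, the RBPs of a tube are not independent of each other. The tested peaks of LIN28B were mostly coding before the call as well, 23827 of 43382 in K562 and 23945 of 41266 in HEK293. With the replicates pooled, the coding share of each of the other 9 RBPs was lower among enriched than among tested peaks. For PRPF8 in HEK293, 87196 of 181776 tested peaks were coding.

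**Figure D1:**
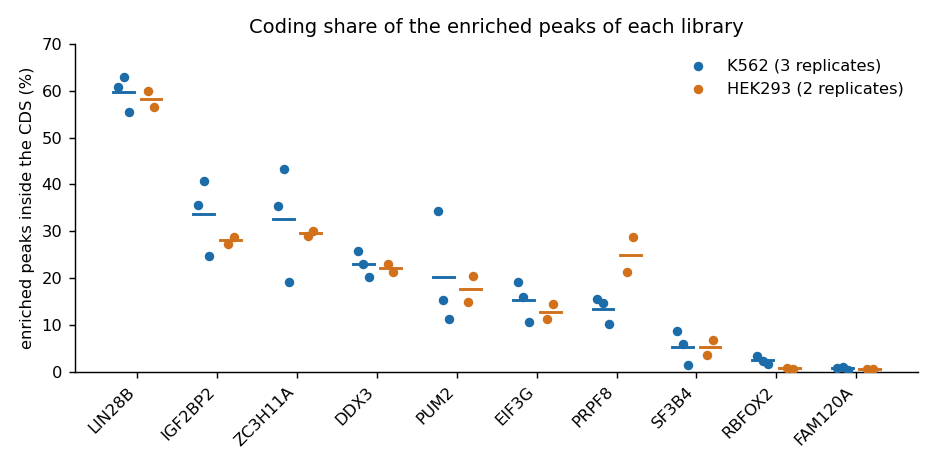
Share of the enriched peaks of each library that lay inside the CDS (%), for the 10 RBPs of the 10plex tubes. Points are replicates (K562 blue, HEK293 orange) and bars are means. LIN28B lies between 55.4% and 62.9% in all tubes, whereas FAM120A and RBFOX2 lie at 3.34% or below.

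The next RBPs in order were IGF2BP2, an mRNA-binding protein, and ZC3H11A, a zinc finger protein of mRNA export. The coding share of IGF2BP2 was 35.5%, 40.8% and 24.6% in K562 and 27.3% and 28.8% in HEK293. That of ZC3H11A was 35.3%, 43.4% and 19.1% in K562 and 29.0% and 30.1% in HEK293. Both were above the mean of the other RBPs in every tube, but with exact permutation p of 0.192 and 0.238 in K562 neither passed the test, nor did they in HEK293 (exact p = 0.5 and 0.35).

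DDX3, an RNA helicase of translation initiation, had 25.7%, 23.1% and 20.2% of its enriched peaks in the CDS in K562 and 22.9% and 21.3% in HEK293. PUM2, a repressor known for sites in 3′ untranslated regions, had 34.2%, 15.3% and 11.3% in K562 and 14.8% and 20.5% in HEK293, with only 42 to 50 enriched coding peaks per library. EIF3G, a subunit of initiation factor eIF3, had 19.0%, 15.9% and 10.6% in K562 and 11.1% and 14.3% in HEK293. PRPF8 had 15.6%, 14.6% and 10.1% in K562 and 21.2% and 28.7% in HEK293. The range of PUM2 overlapped those of DDX3, EIF3G and PRPF8 in K562, and EIF3G lay below DDX3 in all 5 tubes.

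At the low end, SF3B4, a subunit of the U2 snRNP that holds the branch point, had 8.75%, 5.90% and 1.36% in K562 and 3.59% and 6.70% in HEK293. RBFOX2, a splicing regulator, had 3.34%, 2.29% and 1.70% in K562 and 0.75% and 0.553% in HEK293. FAM120A, an RNA-binding scaffold protein, was lowest in all 5 tubes, with 0.660%, 0.953% and 0.337% in K562 and 0.595% and 0.437% in HEK293. The mean of FAM120A in K562, 0.650% ± 0.308, was 22.2 points below that of the other RBPs (exact permutation p = 0.04, adjusted 0.2), and the order of RBFOX2 and FAM120A in HEK293 was within their spread.

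K562 replicate 3 had the lowest coding share for 10 of 10 RBPs. The mean over RBPs was 23.9% in replicate 1, 22.5% in replicate 2 and 15.5% in replicate 3. The lists of replicate 3 include peaks in repeats that those of the other replicates do not, and without these the mean of replicate 3 was 17.2% and still the lowest for 10 of 10. Over the external background it was lowest for 6 of 10 RBPs. The differences between RBPs are therefore taken within replicates throughout.

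Where the peaks sat within their exons separated the spliceosomal RBPs from the rest. SF3B4 had 63.9%, 69.0% and 60.6% of its enriched coding peaks centred within 50 nt of the first base of the exon in K562, from 238, 426 and 71 peaks, and 59.4% and 60.8% in HEK293, from 207 and 237 peaks. All 5 values were above those of every library of the other RBPs, which reached at most 46.0% for PUM2 in HEK293. The K562 mean was 64.5% ± 4.26 (n = 3) against 29.5% for the other 9 (exact permutation p = 0.001, adjusted 0.01), and the HEK293 mean was 60.1% against 27.7% (n = 2, exact p = 0.01, adjusted 0.1). Of all bases in the coding part of the same exons, 37.0% to 42.1% lay that close to the exon start. The coding peaks of SF3B4 that were not enriched lay there in 35.3% to 42.8%.

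Many of these SF3B4 peaks began upstream of the exon. The peak reached past the first base of the exon into the intron for 43.7%, 52.6% and 43.7% of them in K562 and 31.9% and 43.0% in HEK293, and the median centre lay 20, 17 and 28 nt into the exon in K562 and 36 and 31 nt in HEK293. The first 10 nt of the exon alone held 27.7% ± 7.85 of the centres in K562 (n = 3). These medians and this last share count only peaks in exons with an exon before them. When only peaks lying whole within the coding part of an exon were kept, the difference from the other RBPs fell to 8.27 points in K562 (exact p = 0.156) and 14.4 points in HEK293 (exact p = 0.1), and it no longer passed the test. By its construction this setting drops every peak that crosses a splice site.

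PRPF8, the U5 snRNP protein at the heart of the spliceosome, sat at the other end of the exon. It had 67.9%, 66.9% and 82.4% of its enriched coding peaks within 50 nt of the last base of the exon in K562, from 1311, 1895 and 990 peaks, and 79.8% and 78.8% in HEK293, from 2671 and 3075 peaks. No library of another RBP exceeded 40%. The K562 mean was 72.4% ± 8.69 (n = 3) against 24.7% for the other 9 (exact permutation p = 0.001, adjusted 0.01), and the HEK293 mean 79.3% against 23.8% (n = 2, exact p = 0.01, adjusted 0.1). Of the bases of the same exons 43.9% to 46.8% lay within 50 nt of the exon end, as did 41.6% to 48.8% of the coding PRPF8 peaks that were not enriched.

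The PRPF8 peaks crossed the 5′ splice site in most cases. They reached past the last base of the exon for 57.4%, 54.6% and 77.5% in K562 and 72.0% and 70.1% in HEK293. The median centre was 16, 17 and 7 nt from the exon end in K562 and 8 and 10 nt in HEK293. The last 10 nt of the exon held 44.7% ± 12.8 of the centres in K562 (n = 3) and 50.4% ± 3.35 in HEK293 (n = 2), against 6.84% for LIN28B in K562. These medians and the shares in the last 10 nt count only peaks in exons with an exon after them. The last exon of a transcript, which has no 5′ splice site, held 0.707% to 2.14% of all enriched coding PRPF8 peaks. With whole peaks inside the exon only, the difference from the other RBPs fell to 9.03 points in K562 (exact p = 0.041) and 14.9 points in HEK293 (exact p = 0.03).

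**Figure D2:**
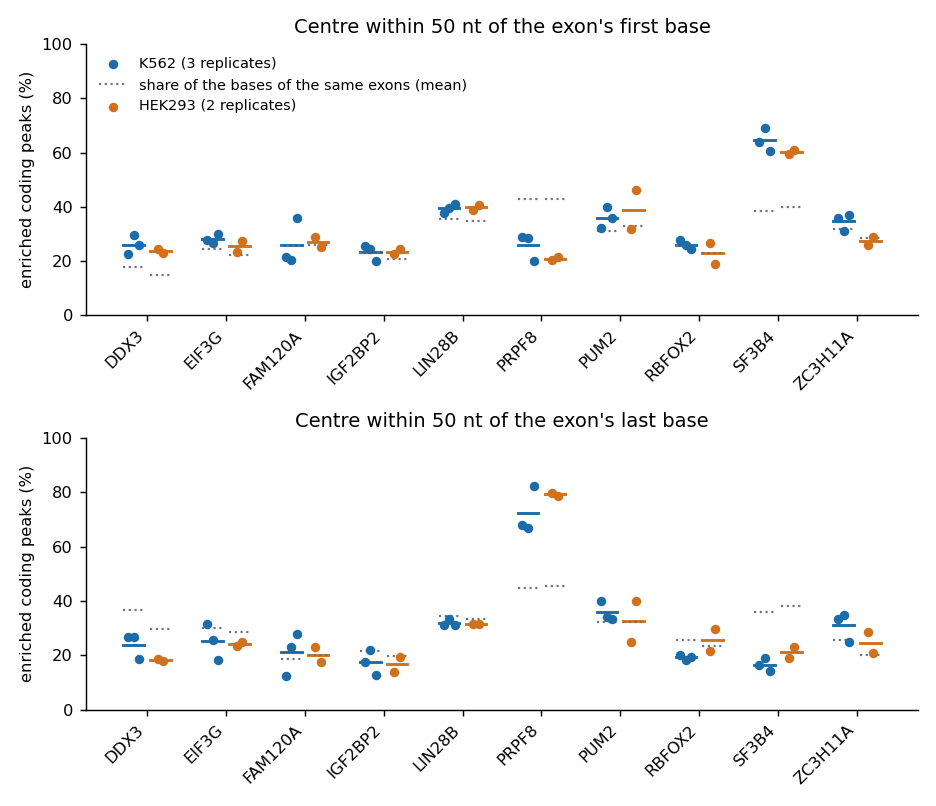
Share of the enriched coding peaks of each library centred within 50 nt of the first base (top) or the last base (bottom) of their exon (%). Points are replicates, bars are means, and dotted lines give the mean share of the bases of the same exons that lie that close. SF3B4 stands above its dotted line at the exon start and PRPF8 at the exon end, in both cell lines.

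**Figure D3:**
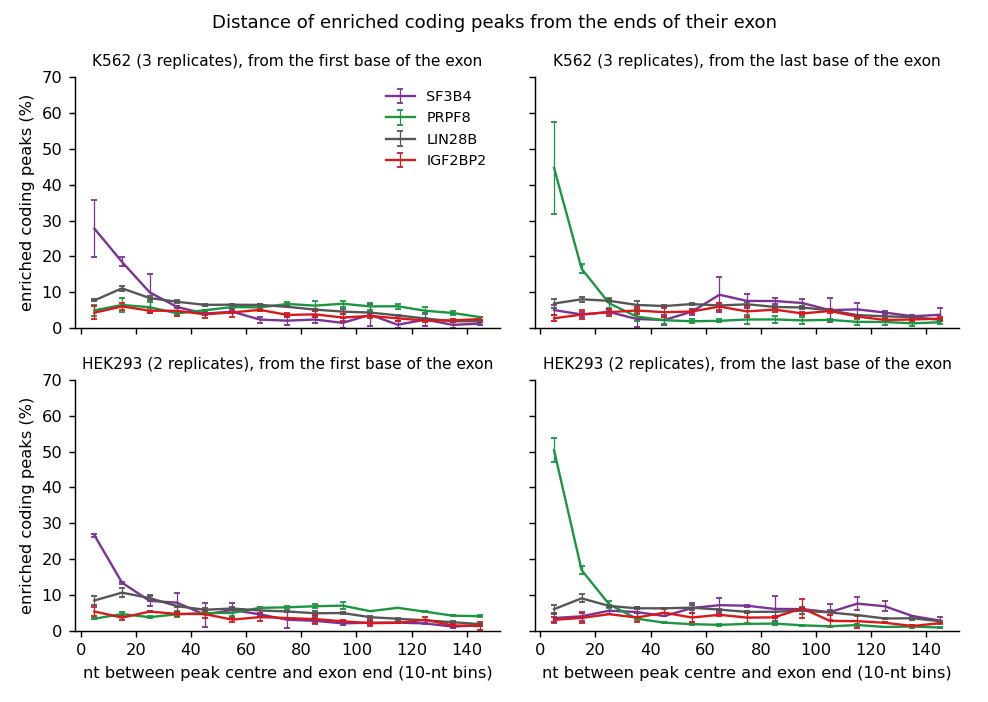
Distance between the centre of enriched coding peaks and the first (left) or last (right) base of the exon, in bins of 10 nt up to 150 nt. Values are shares (%) of the enriched coding peaks of each library in exons with an exon before (left) or after (right) them. Lines are means and bars SD over 3 K562 or 2 HEK293 replicates. SF3B4 is highest in the first bin on the left and PRPF8 in the first bin on the right, whereas the first bin of LIN28B holds 7.72% and 6.84% in K562.

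The other RBPs stayed closer to the share of bases. DDX3 had 22.5%, 29.6% and 26.1% of its enriched coding peaks near the exon start in K562 and 24.5% and 23.1% in HEK293, above the 14.7% to 20.1% of the bases of its exons in all 5 tubes. Near the exon end it had 17.7% to 26.7%, below the 29.0% to 37.6% of the bases in all 5 tubes. Its difference from the other 9 RBPs did not pass the test at either end (exact p = 0.316 and 0.581 in K562). LIN28B had 37.8% to 41.2% of its peaks near the exon start, with 34.4% to 36.2% of the bases there, over all 5 tubes. Near the exon end it had 31% to 33.4%. IGF2BP2 had 20.2% to 25.7% near the exon start and 12.6% to 22.0% near the exon end. The exons hit by FAM120A were long, with a median of 206 to 1505 nt between libraries, whereas those of PRPF8 and SF3B4 had medians of 121 to 153 nt.

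DDX3 sites gathered at the beginning of the CDS. With 0 for the start codon and 1 for the stop codon, the mean position of its enriched coding peaks was 0.25, 0.26 and 0.20 in K562 and 0.24 and 0.24 in HEK293. The other 9 RBPs averaged 0.51 in K562 and 0.52 in HEK293 (exact permutation p = 0.001, adjusted 0.01, and p = 0.01, adjusted 0.1, n = 3 and n = 2 replicates). The first 10% of the CDS held 34.4% ± 5.32 of the DDX3 peaks in K562 and 36.2% ± 0.211 in HEK293, although the first 50 nt were left out by the choice of peaks. The median site lay 147, 157.5 and 113 nt from the start codon in K562 and 159 and 167 nt in HEK293. Coding peaks of DDX3 that were not enriched had a mean position of 0.39 to 0.43.

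The DDX3 sites were also rich in G and C. Windows reaching 50 nt to both sides of their centre in the spliced transcript held 64.4%, 62.7% and 67.6% GC in K562 and 64.9% and 66.3% in HEK293, against means of 53.4% and 51.3% for the other 9 RBPs (exact permutation p = 0.001, adjusted 0.01, and p = 0.01, adjusted 0.1, n = 3 and n = 2). The part of CDS position in this difference was not tested. EIF3G, which acts at the same step, also had its largest share in the first 10%, 24.3% ± 4.24 in K562 and 23.4% ± 3.05 in HEK293. Its mean position was 0.43, 0.42 and 0.32 in K562 and 0.31 and 0.36 in HEK293, which did not pass the test (exact p = 0.124 and 0.08).

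ZC3H11A showed the opposite course. Its mean position was 0.65, 0.74 and 0.64 in K562 and 0.73 and 0.74 in HEK293, against 0.47 for the other 9 in both lines (exact permutation p = 0.005, adjusted 0.025, n = 3, and p = 0.02, adjusted 0.1, n = 2). The last 10% of the CDS held 25.8% ± 4.66 of its peaks in K562 and 33.6% ± 1.00 in HEK293. The median distance to the stop codon was 660, 382 and 540 nt in K562 and 424.5 and 396 nt in HEK293. Its coding peaks that were not enriched had mean positions of 0.57 to 0.61. LIN28B was spread evenly, with means of 0.50 to 0.51 in all tubes, and FAM120A averaged 0.62 in K562 (exact p = 0.062).

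**Figure D4:**
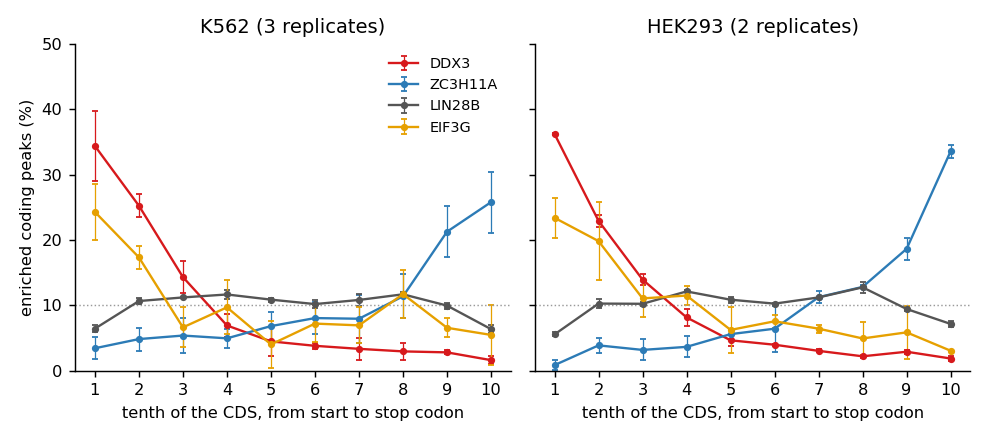
Enriched coding peaks along the CDS, cut into 10 equal stretches from start to stop codon, as a share of the enriched coding peaks of a library (%). Lines are means and bars SD over 3 K562 or 2 HEK293 replicates, and the dotted line is at 10%. DDX3 peaks at 34.4% and 36.2% in the first 10% and ZC3H11A at 25.8% and 33.6% in the last.

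Motifs were searched in the same windows, on the transcribed strand only. GCATG, the core of the RBFOX2 motif, was present in 27.7%, 25.0% and 22.8% of the enriched coding RBFOX2 peaks in K562 (18, 26 and 13 peaks) and in 28.6% and 37.8% in HEK293 (16 and 14 peaks). Every 10plex RBFOX2 library was above every library of the other RBPs, where the highest was FAM120A with 20%. The mean for the other 9 was 8.46% in K562 and 6.88% in HEK293 (exact permutation p = 0.001 and 0.01, adjusted over 6 motif tests 0.003 and 0.03). Of all coding windows of that length in canonical transcripts 8.47% hold GCATG, and coding RBFOX2 peaks that were not enriched held it in 8.76% to 9.97% of cases in K562 and in 9.92% to 11.2% in HEK293. Over the external background the difference was 2.26 points in K562 (exact p = 0.001) and 7.24 points in HEK293 (exact p = 0.01), down from 16.7 and 26.3.

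**Figure D5:**
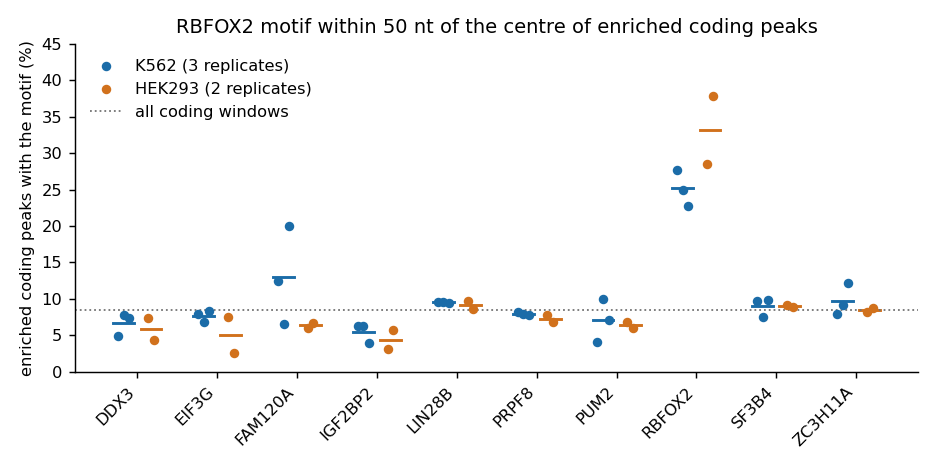
Share of the enriched coding peaks of each library whose window of 50 nt on both sides of the centre holds the RBFOX2 motif (%). Points are replicates, bars are means and the dotted line marks all coding windows (8.47%). RBFOX2 lies between 22.8% and 37.8%, above the libraries of the other RBPs.

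The PUM2 motif TGTANATA was present in 1, 6 and 3 enriched coding PUM2 peaks in K562 replicates 1 to 3, or 2%, 12% and 7.14%, against a mean of 0.229% for the other 9 (exact permutation p = 0.001, adjusted 0.003, n = 3). All coding windows hold it in 0.296%. PUM2 coding peaks that were not enriched held it in 2.02%, 1.58% and 0.735%, so that replicate 1 showed no difference between enriched and other peaks. With stricter limits for enrichment (P below 1e-05 and fold above 16) the difference was 7.39 points with exact p = 0.1. In HEK293 the motif was present in 2.27% and 0% of PUM2 peaks (exact p = 0.19, n = 2).

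Motifs proposed for the other RBPs separated them less. GGAGA, a LIN28 motif, was in 31.1%, 30.9% and 32.5% of LIN28B peaks in K562 against 23.2% for the other 9 (exact permutation p = 0.166, adjusted 0.199) and 21.8% of all coding windows. LIN28B coding peaks that were not enriched held it about as often, in 32.2%, 30.9% and 29.4%. GGAC, the core of the modified adenosine motif linked to IGF2BP2, was in 25.0%, 27.0% and 24.1% of IGF2BP2 peaks in K562 against 38.1% (exact p = 0.028, adjusted 0.056) and 37.5% of all coding windows, with 34.8% to 35.8% at IGF2BP2 coding peaks that were not enriched. The purine repeat GAAGAA was in 21.0% and 30.7% of FAM120A peaks in HEK293 against 10.1% (exact p = 0.01, adjusted 0.03, n = 2) and in 21.4%, 15.6% and 20% in K562 against 11.2% (exact p = 0.073, n = 3). FAM120A coding peaks that were not enriched held it in 20.8% and 21.6% in HEK293 and in 18.3% to 21.1% in K562, within or near the range of the enriched ones. The HEK293 difference did not pass with stricter limits (exact p = 0.11) or over the external background (exact p = 0.19). ZC3H11A peaks held GAAGAA in 9.77% in K562, beside 10.4% of all coding windows and 17.1% to 23.3% of its coding peaks that were not enriched. FAM120A windows were poor in GC, at 44.1%, 44.4% and 52.9% in K562 and 41.9% and 39.5% in HEK293.

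The genes with the most enriched coding peaks differed between RBPs. For LIN28B they included FLNA, which encodes the actin crosslinker filamin A, with 11, 12 and 12 peaks in K562 replicates 1 to 3. For IGF2BP2 they were PABPC1, the cytoplasmic poly(A)-binding protein, with 12, 16 and 15, and the transcription factor gene NFATC3 with 9, 10 and 11, which tied with QSER1 (7, 12 and 11). For RBFOX2 it was DGCR8, the RNA-binding partner of DROSHA in microRNA processing, with 7, 9 and 6 peaks, which made up 9.73% of all its enriched coding peaks in K562. DGCR8 held 5 and 4 RBFOX2 peaks in HEK293 10plex and 10 and 8 in the singleplex tubes, so that it was a coding RBFOX2 target in all 7 tubes with an RBFOX2 library.

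FAM120A had 4, 4 and 3 peaks in FAM98B and 2, 2 and 3 in MDN1, a ribosome assembly factor with a very long CDS. For DDX3 the leading genes were GPX4, a lipid peroxide reductase, with 2, 4 and 2, and SDF2L1, an endoplasmic reticulum chaperone component, with 3, 4 and 1. PRPF8 had 7, 6 and 3 peaks in POLE, the catalytic subunit of DNA polymerase epsilon, and 2, 8 and 2 in the calcium channel gene ITPR3. The peaks of SF3B4 in PLEC numbered 1, 10 and 0, those of ZC3H11A in MAN2A2 numbered 1, 7 and 3, and those of PUM2 in UTP6 numbered 0, 4 and 0. For these RBPs single tubes made the order. EIF3G had 2, 1 and 2 peaks in BRWD1 and no gene with more. The SLBP singleplex libraries had 11 and 10 in FASN, the fatty acid synthase, and 3 and 7 in the elongation factor gene EEF2.

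Gene groups were described by the share of enriched coding peaks they held, beside the share of all tested coding peaks of the same libraries. LIN28B had enriched coding peaks in 28 of 88 cytoplasmic ribosomal protein genes in K562, with 149 peaks, which was 1.89% ± 0.181 of its enriched and 1.93% of its tested coding peaks. RPS19 had 5, 7 and 4 of these and RPL5 had 3, 7 and 3. It also had peaks in 17 of 24 core spliceosome genes (1.33% of enriched, 1.38% of tested), with 5, 10 and 5 in PRPF8 itself, and in 29 of 48 proteasome genes (1.34% and 1.12%), with 5, 8 and 4 in PSMD2. The group of SR and hnRNP splicing factors was lower among enriched LIN28B peaks, at 0.489% ± 0.0513 against 1.38% of tested ones, and in HEK293 it was 0.291% against 1.21%. LIN28B had an enriched peak in every one of the 24 genes with very long coding sequences in K562 (3.95% of enriched, 3.74% of tested).

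Zinc finger genes named ZNF held a larger share of enriched than of tested coding peaks for several RBPs. They made up 7.31% ± 2.87 of the enriched and 1.2% of the tested peaks of FAM120A in K562, from 17 peaks in 7 of 508 genes, and 9.17% against 1.76% in HEK293. For RBFOX2 they held 6.05% ± 0.739 of enriched and 0.841% of tested coding peaks in K562, from 14 peaks in 5 genes, and 16.6% against 1.67% in HEK293, from 15 peaks in 4 genes. ZNF92 had 3, 3 and 1 FAM120A peaks, and ZNF536 had 2, 2 and 2 RBFOX2 peaks. ZNF genes have near-identical repeats. The study's methods keep only uniquely mapped reads, so reads from such repeats may be missing. For IGF2BP2 the shares in K562 were 1.86% and 0.994%, for ZC3H11A 1.70% and 0.636%, for SF3B4 1.61% and 0.812%, and for PUM2 2.79% and 1.32%, the last from 4 peaks. Ribosomal protein genes held 0.176% of the enriched and 2.37% of the tested coding peaks of DDX3 in K562, 2 peaks in 1 gene. These shares rest on few genes and were not tested.

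Enriched coding peaks of the K562 10plex tubes lay in genes of a single RBP for 3202 genes, 58.3% of those with any, and in genes of a pair of RBPs for 28.4%. UBR4, a ubiquitin ligase gene with a CDS of 15549 nt, had enriched coding peaks of 7 RBPs. A further 9 genes had those of 6, among them PRKDC, PI4KA, HUWE1 and ASPM. An RBP was counted with 1 peak in any of the 3 tubes. In UBR4, PUM2 had 0, 0 and 1 peaks and RBFOX2 had 1, 0 and 0 in K562 replicates 1 to 3. Enriched coding peaks of different RBPs rarely overlapped in the same tube. Averaged over tubes, the highest share of the peaks of 1 RBP that overlapped those of another was 2.27%, for PUM2 with LIN28B in HEK293. These shares cannot tell how often RBPs bind the same site. The reads of each RBP count in the CC of the others, so the call itself works against sites that RBPs share.

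Sites were found again between tubes to very different degrees. Of the enriched LIN28B coding peaks of a K562 replicate 49.5% on average (38.6% to 62.6% over the pairs) overlapped one of another replicate, and 937 sites were enriched in all 3 replicates. FAM120A had 28.0%, RBFOX2 27.1%, IGF2BP2 24.1% and DDX3 19.2%. For PUM2 it was 8.44%, for ZC3H11A 7.68%, for PRPF8 6.05%, for EIF3G 5.72% and for SF3B4 4.47%. The median enriched coding peak held 3 to 15 reads in K562, and the call was made at a fixed threshold, so a site that was not called again is not shown to be unbound. The lower shares depended on the call. With stricter limits 31.3% of PUM2, 24.9% of ZC3H11A and 31.1% of EIF3G sites were found again in K562, and over the external background 32.7% of PRPF8, 30.5% of EIF3G and 21.4% of SF3B4 sites. In HEK293 RBFOX2 had 48.5% and LIN28B 46.9% found again, and SF3B4 again the least with 2.72%. PRPF8 thus lay mostly near the exon end and SF3B4 near the exon start in every tube, while few of their single sites were called again over the CC. Over the external background 41.0% of PRPF8 and 20.8% of SF3B4 sites were found again in HEK293.

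Across cell lines 48.2% of the K562 LIN28B coding sites were enriched in a HEK293 replicate, and 56.4% of the HEK293 sites in a K562 one. For PRPF8 the site shares were 12% and 8.21%, although 54.5% of its K562 genes and 37.6% of its HEK293 genes were shared. SF3B4 shared 4.47% and 5.76% of its sites. In the coding share the ranges of K562 and HEK293 did not overlap for PRPF8 and RBFOX2. PRPF8 had 13.4% ± 2.91 in K562 and 25.0% ± 5.30 in HEK293 (exact permutation p = 0.1, adjusted 0.875, the smallest p that 3 against 2 allows), and over the external background the difference was 0.775 points the other way. RBFOX2 had 2.44% ± 0.831 and 0.652% ± 0.139 (exact p = 0.2, adjusted 0.875). For the other 8 RBPs the ranges overlapped and 7 of them changed direction in some of the alternative settings, so no order of the lines is given.

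The pooled and the single-antibody RBFOX2 libraries of HEK293 were compared over the external background, which both have. The enriched coding peaks numbered 195 and 267 of 29265 and 24014 enriched peaks in singleplex (0.666% and 1.11%) and 350 and 449 of 19388 and 14195 in 10plex (1.81% and 3.16%). The singleplex mean was 1.6 points lower (exact permutation p = 0.333, the smallest that 2 against 2 allows). GCATG was in 22.1% and 19.5% of singleplex and in 15.4% and 11.6% of 10plex peaks (exact p = 0.333). The ranges did not overlap in either measure. Singleplex RBFOX2 coding sites were found again in 62.3%, and 142 sites were enriched in both tubes.

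SLBP, which binds the stem-loop at the end of histone mRNAs, had 405 and 418 enriched coding peaks, 24.1% and 24.0% of its enriched peaks. In replicate 2, 1741 of its 1743 peaks were called enriched, so enrichment made almost no choice there. Of its coding sites 7.29% were found again between the tubes, and 30 were enriched in both. Their centres were near the exon start in 25.4% and 23.4% and near the exon end in 24.9% and 27.5%.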

How the data were processed

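RNA crosslinked to RBPs was measured in 54 libraries of 9 tubes. Per the labels and the study's methods, the authors trimmed reads with cutadapt 2.8, aligned them to GRCh38 with STAR 2.7.6, called peaks per library, merged overlapping ones and deposited for each peak −log10 P and the log2 fold over an external background. For 10plex tubes they also deposited values over the CC, as −log10 P and log2 fold in K562 replicate 3 and as a chi-squared statistic in the other tubes. For those tubes the reads of the CC were solved from the deposited statistic, and P and fold were then computed as in replicate 3. The recovered values gave whole CC reads for 69.1% to 99.3% of enriched K562 peaks and 59.7% to 97.7% of HEK293 peaks, and the same rule returned 99.5% to 100% of the authors' calls in replicate 3. CC reads were taken as at least 1 in a fold, which set the fold of 6.47% (K562) and 5.05% (HEK293) of enriched coding peaks. The recovered pool shares of HEK293 replicate 2 summed to 78.3%, and the share of FAM120A was set to the remainder, 24.6%. In all, 24766 coding peaks had no CC value and were not tested.

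Canonical transcripts came from GENCODE 44 (19701 with a CDS), whereas the authors used release 35. The centre of 11959 peaks lay in more than 1 canonical CDS, and 1 was kept. Distances are along the spliced transcript, and exon ends are the first and last base of the exon, untranslated bases included. Each measure was taken per library, and each RBP was compared with the other 9 by an exact two-sided permutation of RBP labels within replicates, with Benjamini-Hochberg adjustment over the 10 RBPs or 6 motif tests. Checked on 1000 simulated data sets without a difference, the test called 4.3% (3 replicates) and 4.4% (2 replicates). The simulated libraries were independent draws, without lasting differences between RBPs and without a shared CC. These rates therefore need not hold for the data. Counting error limits peaks of few reads, and the fewest reads in a peak were 3. Molecular error was not assessed. Named sites were the 2 coding sites of each RBP with the highest mean log2 fold among those enriched in all replicates and away from adapter-like sites, and named genes the 2 with the most enriched coding peaks in K562. Not every gene that this rule names is reported here. Peaks within 30 nt of a sequence like the sequencing adapter numbered 2631, of which 221 were enriched. Alternatives changed the limits, the background, the margins, the windows, the treatment of repeats and adapter-like sites, and the replicates. The coding peaks, gene lists and tests were chosen with earlier results of these data known. Python 3.11.15, numpy 2.4.6, pandas 2.3.3, scipy 1.17.1 and matplotlib 3.10.9 were used.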

Additional observations from a re-analysis of the deposited data

Results flagged for a closer look

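The coding share of PRPF8 lay on opposite sides of the mean of the other 9 RBPs in the 2 cell lines, but neither difference passed the test. In K562 it was below their mean in 3 of 3 tubes, by -7.99 percentage points on average (13.4% against 21.4%, exact permutation p = 0.492, adjusted 0.703). In HEK293 it was above their mean in 2 of 2 tubes, by 5.59 points (25.0% against 19.4%, exact permutation p = 0.72, adjusted 0.87). The shift between the lines was -13.6 points, and this difference was not tested. Over the external background the coding share of PRPF8 itself differed between the lines in the other direction.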

How the results depend on the processing

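The 14 differences between an RBP and the other 9 that were followed through the alternatives kept their direction in all of them, and in all but the following 5 cases they stayed past a p of 0.05. With whole peaks inside an exon the SF3B4 difference near the exon start was 8.27 points in K562 (exact p = 0.156) and 14.4 in HEK293 (exact p = 0.1), and those of PRPF8 near the exon end were 9.03 and 14.9. With stricter limits the PUM2 motif difference was 7.39 points (exact p = 0.1), and the FAM120A GAAGAA difference in HEK293 was 17.3 (exact p = 0.11). That of FAM120A over the external background was 4.35 (exact p = 0.19). The difference of PRPF8 between K562 and HEK293 in coding share reversed to 0.775 over the external background (exact p = 0.8). Over that background the LIN28B difference in coding share was 28.1 points in K562 and 17.8 in HEK293, that of SF3B4 near the exon start 11.6 and 11.5, that of PRPF8 near the exon end 17.9 and 26.6, that of RBFOX2 in GCATG 2.26 and 7.24, that of PUM2 in its motif 2.29, and those of DDX3 and ZC3H11A in K562 position -0.13 and 0.13. The cause was not tested. At most 1 external read was held by 98.2% of enriched coding peaks in K562 and by 1.17% in HEK293.

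Without 1 K562 replicate the differences ranged from 42.6 to 44.6 (LIN28B), 32.8 to 37.2 (SF3B4), 41.5 to 51.3 (PRPF8), -0.28 to -0.26 (DDX3), 0.18 to 0.23 (ZC3H11A), 15.2 to 18.4 (GCATG) and 4.39 to 9.37 (TGTANATA). For the HEK293 differences, values without 1 replicate were set aside, since 1 replicate allows no p below 0.1. The comparisons of the cell lines did include settings without a HEK293 replicate. Without the replicate block the differences were unchanged and the smallest p was 0.000246 in K562 and 0.00526 in HEK293, with the pairing of RBPs by tube changing 1 call, the position of FAM120A in K562 (exact p = 0.0468 without the block, 0.062 with it). For the 8 RBPs whose lines overlap in coding share, the direction between K562 and HEK293 was turned in 20 of 72 alternatives. Among the overlap and cell-line values with no call, 79 moved by less than the spread between replicates and 20 by more.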
